A study of Populus deltoides with 38 samples.

Results

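Low sulfate supply was compared with high sulfate supply in leaf small RNA of the poplar Populus deltoides (variety monilifera), in plants that received no cadmium (Cd). The comparison used 6 of the 38 samples of the series, chosen by their labels: 3 small RNA libraries from plants given 0 µM sulfate and 3 from plants given 1500 µM sulfate. All plants were grown from stem cuttings and moved to hydroponics. They received their sulfate level for 12 days and then for 21 further days with 0 µM CdCl2, and the labels give an age of 89 d. A further 3 libraries at 100 µM sulfate without Cd, called middle sulfate, were used as another level of the same series, and 3 libraries each at low and at high sulfate with 50 µM CdCl2 were used to ask whether the difference itself changed with Cd. The leaf label could not be checked against markers, because no Populus gene identifier in the mRNA files could be matched to a gene name. Nothing in the labels says whether the libraries of a group came from separate plants, so the p-values speak for these libraries only, whose spread can be technical in origin. A higher or lower share of a miRNA in bulk leaf RNA does not tell more RNA per cell from more cells that make it.

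A microRNA (miRNA) is cut from the stem of a folded precursor, the hairpin, and guides the cleavage of transcripts that pair with it. Plants take up sulfate through transporters, activate it with ATP sulfurylase and reduce it for the synthesis of cysteine. In Arabidopsis, miR395 accumulates when sulfate is short and guides the cleavage of transcripts of ATP sulfurylases and of a low-affinity sulfate transporter. In Arabidopsis, miR399 and miR827 accumulate when phosphate is short, and miR399 targets the transcript of PHO2, a ubiquitin-conjugating enzyme that restrains phosphate uptake.

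The sequences below carried the differences, and they are shown because members of a family differ by few bases and share or lose a seed. They are as the authors' tables give them, 5′ to 3′ and with T for U, and the capitals mark the seed, bases 2 to 8.
ptc-miR395b: cTGAAGTGtttgggggaactc
stu-miR395a_1ss1CA: aTGAAGTGtttgggggaactc
ptc-miR395a: cTGAAGGGtttggaggaactc
ptc-MIR395b-p5: gTTCCCTTgagcacttcact
ptc-MIR395a-p5: gTTCCTCCtagcttcttcagt
ptc-miR399f: tGCCAAAGgagaattgccctg
ptc-miR399b: tGCCAAAGgagatttgcccgg
ptc-miR399d: tGCCAAAGaagatttgccccg
ptc-miR827: tTAGATGAccatcaacgaaaa
ptc-MIR6462a-p3_1ss17GA: tTTTTGTCcctcgctaatctc
ptc-miR3627a_R+1: tCTGTCGCtggaaagatggtacc
ptc-MIR393c-p3: aTCATGCGatcccttaggaat

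Names that start with a species code other than ptc are those of the miRBase entry the authors matched, and MIR in capitals with p5 or p3 marks a strand named by the hairpin arm it came from. For the miR395, miR399 and miR827 sequences described here these are the strands opposite annotated miRNAs. They are called passenger strands below by this naming and not by abundance. Both strands of ptc-MIR6462a have such names. From ptc-miR395b to ptc-miR395a, counted from 1 at the 5′ end, the substitutions are T7G and G14A, so that ptc-miR395a alone of the 3 sequences from the 3′ arm shown here has another seed. From ptc-miR395b to stu-miR395a_1ss1CA the substitution is C1A, which leaves the seed unchanged. From ptc-miR399b to ptc-miR399f they are T13A and G20T, and from ptc-miR399b to ptc-miR399d they are G9A and G20C, all outside the seed.

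Each library held between 1396765 and 2364355 reads on the listed miRNA sequences at low sulfate and between 1756065 and 2233558 at high sulfate, which count the listed miRNAs and not whole libraries. Of 1162 listed sequences, 368 had enough reads to be tested. Levels are CPM, read counts scaled to 1000000 reads of a library whose size edgeR's TMM factors adjust. A sequence was called at an adjusted p under 0.05 in edgeR's quasi-likelihood test, with Benjamini-Hochberg adjustment over all 368. At low sulfate 18 sequences were higher (4.89% of those tested) and 7 were lower (1.9%), in all 6.79%. Of the 18 higher sequences 14 were miR395, and all 7 lower sequences were miR399 or miR827. Summed by family, 144 features were tested, and 4 were called (2.78%): miR395, miR6462 and miR3627 were higher (2.08%) and miR399 was lower (0.694%). The median log2 change of all tested sequences was 0.01, and quantile normalization moved it to −0.17.

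**Figure D1:**
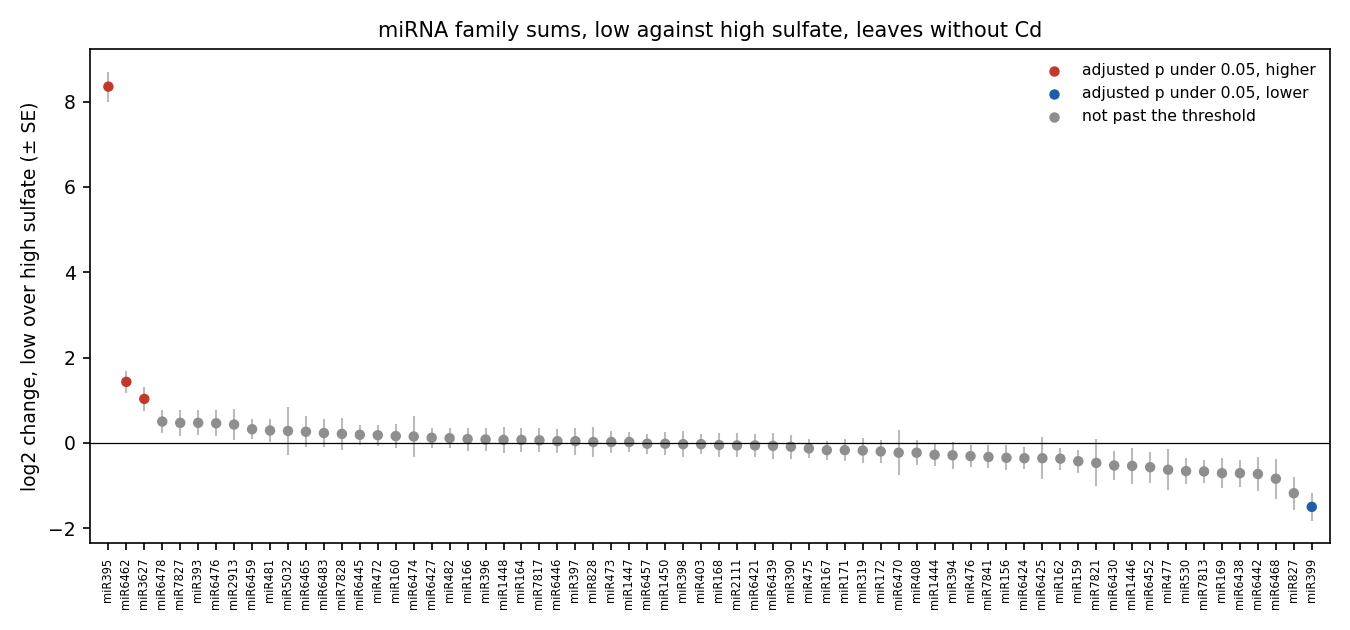
Log2 change (± SE) of the reads summed by miRNA family, low over high sulfate without Cd, for the 68 miRNA families tested, sorted by size. miR395 stands at 8.35, miR6462 at 1.43 and miR3627 at 1.03, miR399 at −1.50, and the other families lie between −1.18 and 0.50.

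miR395 was the family with the largest change. Its reads summed to 79964, 82505 and 70494 CPM in the 3 low sulfate libraries, against 336, 201 and 179 CPM in the 3 high sulfate libraries. All 3 low sulfate libraries lay far above all 3 high sulfate libraries. The log2 change was 8.35 ± 0.35 (SE; edgeR, adjusted p = 9.9e-19). As a share of listed reads, miR395 made up 6.92% to 7.21% at low sulfate and 0.0194% to 0.0308% at high sulfate.

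All 14 of the 15 listed miR395 sequences that passed the filter on low counts were called higher, and for each of them the low and high sulfate libraries did not overlap. Over all sequences tested, 11.7% were higher without overlap and 12.2% lower without overlap. The filter keeps a sequence that is high in 1 group only, so this count describes the sequences that passed it and not the family's full list. Leaving out the sequence that had no read at high sulfate, the log2 changes ran from 2.39 to 9.80. The median of the fitted changes was 8.96, or 8.25 with that sequence set to its bound.

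The most abundant member was ptc-miR395b, the mature miRNA listed at 6 hairpins. It stood at 61968, 65443 and 63464 CPM at low sulfate, against 150, 98.7 and 73.6 CPM at high sulfate (9.21 ± 0.40 on the log2 scale; edgeR, adjusted p = 3.0e-13). The replicates at low sulfate lay close together. Its variant stu-miR395a_1ss1CA, which differs at the first base only, stood at 1867, 2200 and 2702 CPM at low sulfate, against 2.66, 1.02 and 3.71 CPM at high sulfate (9.80 ± 0.47; edgeR, adjusted p = 9.1e-13). Reads of sequences so alike can be split between them by a single sequencing error, so the family sum is the firmer value.

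The opposite strands of the hairpins rose as well. The hairpin of ptc-MIR395b, listed by the authors on chromosome 6, positions 7613271 to 7613368, plus strand, is shown with its 2 listed strands in capitals because both were counted.
ptc-MIR395b: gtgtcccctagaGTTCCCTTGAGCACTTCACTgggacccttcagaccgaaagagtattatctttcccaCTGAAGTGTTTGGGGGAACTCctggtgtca

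The genome build behind these coordinates is not given in the sources used here. ptc-MIR395b-p5 from this hairpin stood at 3438, 3306 and 1850 CPM at low sulfate, against 5.31, 2.56 and 3.18 CPM at high sulfate (9.55 ± 0.55; edgeR, adjusted p = 2.0e-11). vvi-MIR395g-p5 is listed at an overlapping entry at the same place, but its sequence differs from the hairpin shown by 1 base. Whether its reads come from this hairpin was not tested. It stood at 136, 111 and 112 CPM at low sulfate and had 1 read in all at high sulfate. The ratio of its pooled reads was 724, with a 95% interval from 130 to 28661 that covers counting error only.

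Other passenger strands of chromosomes 6 and 16 rose too, by log2 changes between 6.48 and 8.97. ptc-MIR395k-p5 of chromosome 16 was at 3815, 3633 and 2301 CPM at low sulfate, against 11.1, 3.58 and 4.24 CPM at high sulfate (8.97 ± 0.54; edgeR, adjusted p = 2.7e-11). ptc-MIR395c-p5 is listed at 2 hairpins, on chromosomes 6 and 16, so its reads cannot be assigned to 1 locus. It was at 4005, 3970 and 3254 CPM, against 44.7, 12.3 and 27 CPM (7.05 ± 0.48; edgeR, adjusted p = 2.3e-10). The lowest of these low sulfate values lies far above the highest high sulfate value in each case. ptc-MIR395d-p5_1ss5TC of chromosome 6 was at 844, 887 and 556 CPM, against 2.21, 0 and 2.12 CPM (8.95 ± 0.52; edgeR, adjusted p = 2.2e-11). ptc-MIR395i-p5 of chromosome 16 was at 108, 105 and 112 CPM, against 1.77, 0 and 1.59 CPM (6.48 ± 0.48; edgeR, adjusted p = 9.6e-10).

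The sequence aly-miR395e-5p_L-1R+3 had no read in any high sulfate library and 325 reads at low sulfate, where it stood at 51.4, 65 and 85.7 CPM. Against a floor of 3 reads over the high sulfate group it was at least 136-fold higher at low sulfate.

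The 2 strands of ptc-MIR395a changed least among the miR395 sequences. This hairpin is listed on chromosome 2, positions 14658627 to 14658852, plus strand, and is longer than that of ptc-MIR395b, with a loop of other sequence between the 2 strands in capitals.
ptc-MIR395a: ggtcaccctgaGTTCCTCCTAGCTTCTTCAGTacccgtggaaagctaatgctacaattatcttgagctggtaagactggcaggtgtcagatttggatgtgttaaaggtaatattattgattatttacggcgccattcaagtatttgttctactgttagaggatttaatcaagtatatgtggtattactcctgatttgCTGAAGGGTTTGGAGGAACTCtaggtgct

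ptc-miR395a stood at 156.9, 139 and 141 CPM at low sulfate, against 12.8, 20.4 and 13.8 CPM at high sulfate (3.21 ± 0.28; edgeR, adjusted p = 9.6e-09). ptc-MIR395a-p5 stood at 344, 359 and 317 CPM at low sulfate, against 71.3, 54.2 and 68.3 CPM at high sulfate (2.39 ± 0.29; edgeR, adjusted p = 2.4e-06). Both were called higher, and neither had overlapping groups. In each of these libraries ptc-MIR395a-p5 was the more abundant strand, although its name marks it as the passenger.

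The make-up of the family differed accordingly. ptc-miR395b made up 81.6% ± 1.91 of the miR395 reads at low sulfate and 45.7% ± 7.65 at high sulfate (SD, n = 3 each). ptc-MIR395a-p5 made up 0.436% ± 0.0153 at low sulfate and 28.5% ± 5.38 at high sulfate. The groups did not overlap for either share, and the exact two-sided permutation p was 0.1, the smallest that 3 against 3 libraries allow. Sequences of the 5′ arm together made up 14.4% ± 2.74 of miR395 reads at low sulfate and 45.3% ± 8.11 at high sulfate, again without overlap and with an exact permutation p of 0.1. They include ptc-MIR395a-p5, so this is not a result separate from its share, and the arm without it was not tested. The high sulfate shares rest on 686, 380 and 377 miR395 reads.

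**Figure D2:**
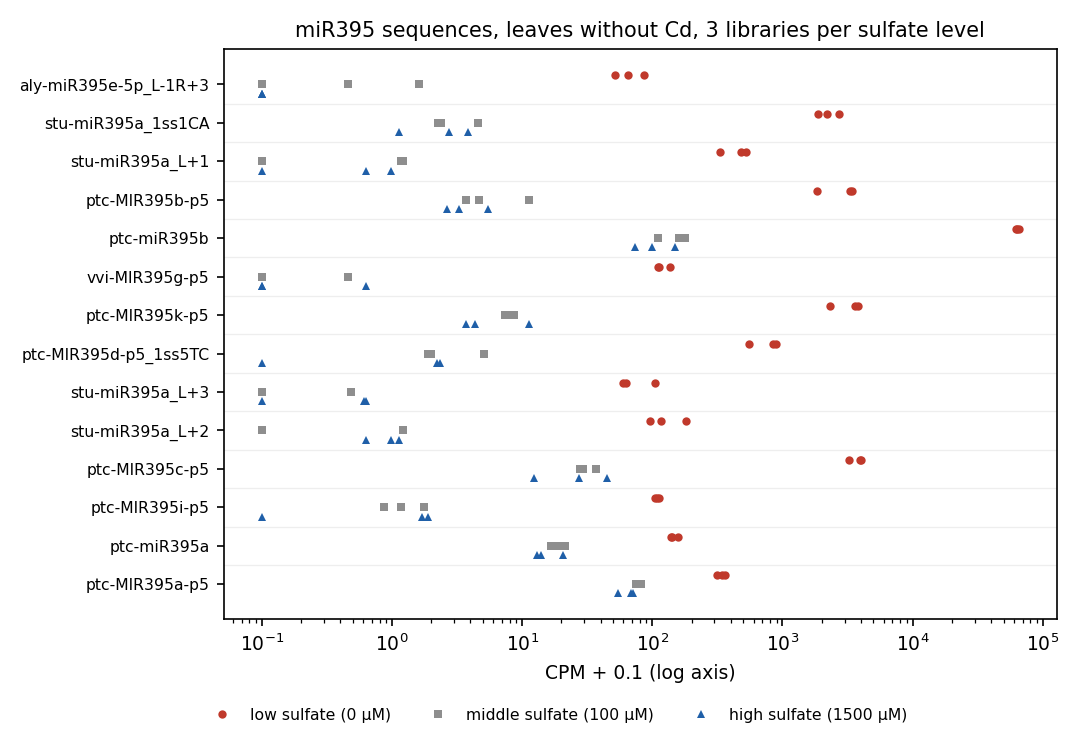
Level of the 14 tested miR395 sequences in each library without Cd, as CPM + 0.1 on a log axis, with 3 libraries at each of 0, 100 and 1500 µM sulfate; a value of 0 is drawn at 0.1. The low sulfate libraries lie apart to the right for each sequence, nearest to the others for ptc-MIR395a-p5 and ptc-miR395a, and the middle and high sulfate libraries lie together.

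Middle sulfate libraries were close to high sulfate libraries. The miR395 sum was 79964, 82505 and 70494 CPM at 0 µM, 365, 255 and 269 CPM at 100 µM, and 336, 201 and 179 CPM at 1500 µM sulfate. The log2 change, middle over high sulfate, was 0.31 (edgeR, adjusted p = 0.999). Between middle and high sulfate 0 of 368 sequences were called (edgeR), and 11 had an unadjusted p under 0.05.

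Of the 3 phosphate-related families, miR399 was lower at low sulfate, and the sums of miR827 and miR2111 did not pass. Of 31 listed miR399, miR827 and miR2111 sequences 20 passed the filter, and 7 of these were lower at low sulfate, as were 1.9% of all tested sequences, and 13 did not pass the test. The log2 change was negative for 19 of the 20, with a median of −1.21 beside 0.01 for all tested sequences, and 13 of the 20 were lower without overlap, as were 12.2% of all tested sequences. The families were grouped by their numbers with earlier results of these data known, so their shared direction is a description.

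miR399 reads summed to 3128, 3482 and 5874 CPM at low sulfate, against 13584, 12107 and 9577 CPM at high sulfate. The groups did not overlap, and replicate 3 was the highest of the low sulfate libraries. The log2 change was −1.50 ± 0.33 (edgeR, adjusted p = 0.004). The call was lost without low sulfate replicate 1 (−1.21; edgeR, adjusted p = 0.104), without low sulfate replicate 2 (−1.31; edgeR, adjusted p = 0.095) and under quantile normalization (−1.50; limma, adjusted p = 0.115).

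All 16 tested miR399 sequences had negative log2 changes, as did 177 of all 368. Of the 16, 6 were called lower and 11 were lower without overlap, beside 1.9% and 12.2% of all tested sequences. In 14 of the 16, low sulfate replicate 3 was the highest of its group, as it was in 48.4% of all tested sequences. The number of phosphate-related sequences called lower was 13 without that replicate, 1 without low sulfate replicate 1 and 3 without low sulfate replicate 2.

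The most abundant miR399 was ptc-miR399f, whose hairpin on chromosome 4, positions 4817044 to 4817144, plus strand, is shown because a locus of the mRNA tables covers it (both listed strands in capitals).
ptc-MIR399f: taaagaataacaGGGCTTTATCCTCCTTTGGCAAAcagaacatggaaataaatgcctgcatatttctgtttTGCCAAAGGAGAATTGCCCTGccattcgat

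ptc-miR399f stood at 1057, 1131 and 1701 CPM at low sulfate, against 5890, 4488 and 3590 CPM at high sulfate (−1.84 ± 0.39; edgeR, adjusted p = 0.003). It is also listed at the hairpin of ptc-MIR399g, also on chromosome 4, so the reads cannot be assigned to 1 locus. ptc-miR399d stood at 132, 132 and 398.5 CPM, against 885, 1100 and 918 CPM (−2.14 ± 0.51; edgeR, adjusted p = 0.009). ptc-miR399b stood at 264, 288 and 457 CPM, against 626, 827.7 and 803 CPM (−1.16 ± 0.31; edgeR, adjusted p = 0.022). In all 3 the highest low sulfate library lay below the lowest high sulfate library. The call on ptc-miR399f held without each library in turn. That on ptc-miR399d was lost without low sulfate replicate 1 (edgeR, adjusted p = 0.061), and that on ptc-miR399b without low sulfate replicate 1 (0.115) or 2 (0.079) or high sulfate replicate 3 (0.070).

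Some passenger strands of miR399 were called lower too. ptc-MIR399b-p5, ptc-MIR399e-p5_1ss1TA, ptc-MIR399g-p5, ptc-MIR399f-p5 and ptc-MIR399a-p5_1ss13TC had negative changes that did not pass (edgeR, adjusted p = 0.090, 0.140, 0.254, 0.451 and 0.484). Groups overlapped for the p5 strands of ptc-MIR399g, ptc-MIR399f and ptc-MIR399a. ptc-MIR399f-p5 stood at 79.8, 138 and 631 CPM at low sulfate, against 616, 606 and 694 CPM at high sulfate. ptc-MIR399i-p5_1ss4TC of chromosome 12 stood at 18.7, 28.9 and 18 CPM at low sulfate, against 129 ± 41.5 CPM (SD, n = 3) and no less than 84.2 CPM at high sulfate (−2.54 ± 0.60; edgeR, adjusted p = 0.009). ptc-MIR399d-p5 of chromosome 4 stood at 11.8, 19 and 82 CPM, against 238, 235 and 161 CPM (−2.52 ± 0.70; edgeR, adjusted p = 0.028). The call on ptc-MIR399i-p5_1ss4TC was lost without low sulfate replicate 1 (edgeR, adjusted p = 0.051), and that on ptc-MIR399d-p5 without low sulfate replicate 1 (0.155) or 2 (0.092) or high sulfate replicate 1 (0.060). The seventh lower sequence, ptc-miR399c_L+2R-2, was named after its values were seen and is the 1 whose groups overlapped. It stood at 18.7, 12.3 and 57.9 CPM at low sulfate, against 53.1, 166.7 and 152 CPM at high sulfate (−2.09 ± 0.60; edgeR, adjusted p = 0.035). Its call was lost with the 6 libraries alone (edgeR, adjusted p = 0.064) and without low sulfate replicate 1 (0.185) or 2 (0.158) or high sulfate replicate 2 (0.098) or 3 (0.105). Of the 6 tested sequences with the seed GCCAAAG, 3 were called lower, beside 1.9% of all tested sequences. These are ptc-miR399f, ptc-miR399d and ptc-miR399b above, whose calls drew attention to this seed.

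miR827, which targets transcripts of SPX-domain proteins of phosphate balance in Arabidopsis, was called lower at low sulfate in 1 strand. ptc-MIR827-p5, the passenger strand, stood at 13.2, 13.3 and 18.8 CPM at low sulfate, against 39.4, 71.1 and 50.8 CPM at high sulfate (−1.84 ± 0.50; edgeR, adjusted p = 0.022). This call was lost without low sulfate replicate 1 (edgeR, adjusted p = 0.115) or 2 (0.092) or high sulfate replicate 2 (0.087), and under quantile normalization (limma, adjusted p = 0.062). The far more abundant ptc-miR827 stood at 1882, 1709 and 3039 CPM, against 4541, 5270 and 4790 CPM, without overlap, and its change of −1.14 ± 0.45 did not pass (edgeR, adjusted p = 0.168). Whether the strands differ in their change was not tested. The miR827 sum likewise did not pass (−1.18 ± 0.39; edgeR, adjusted p = 0.094). miR2111, also known to respond to phosphate in Arabidopsis, summed to 44.6, 60 and 46.2 CPM at low sulfate, against 75.3, 49.6 and 32.8 CPM at high sulfate, with overlapping groups (−0.06 ± 0.28; edgeR, adjusted p = 0.949).

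**Figure D3:**
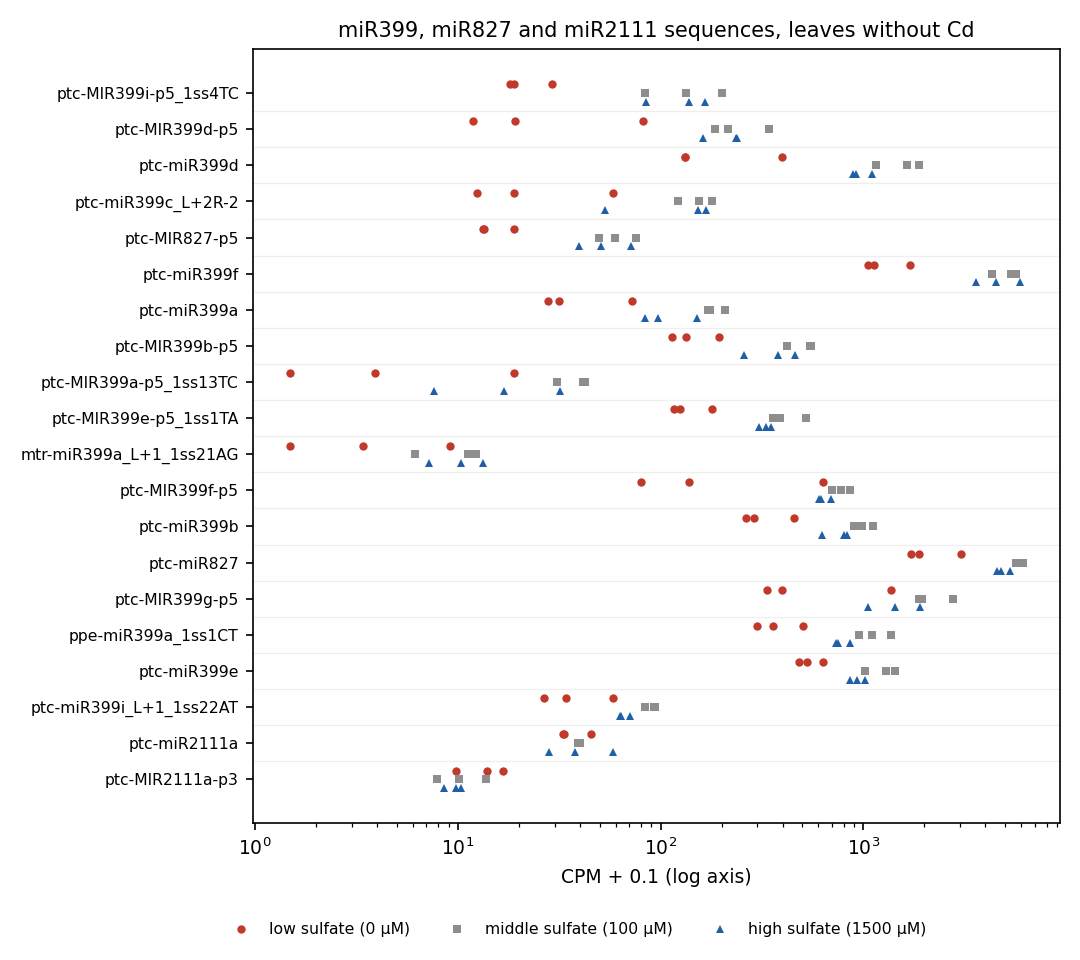
Level of the 20 tested miR399, miR827 and miR2111 sequences in each library without Cd, as CPM + 0.1 on a log axis, 3 libraries at each of 0, 100 and 1500 µM sulfate. For 13 of the 20 sequences the low sulfate libraries all lie left of the high sulfate libraries, and in 14 of the 16 miR399 sequences the rightmost low sulfate library is replicate 3.

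As with miR395, the middle sulfate libraries lay near the high sulfate ones. The miR399 sum was 3128, 3482 and 5874 CPM at 0 µM, 17053, 12029 and 14742 CPM at 100 µM, and 13584, 12107 and 9577 CPM at 1500 µM sulfate, and the log2 change, middle over high sulfate, was 0.31 (edgeR, adjusted p = 0.999).

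miR6462, a family described in poplar, was higher at low sulfate. Its sum stood at 1170, 936 and 732 CPM at low sulfate, against 366, 375 and 312 CPM at high sulfate (1.43 ± 0.25; edgeR, adjusted p = 2.9e-04). The groups did not overlap. Most of these reads came from ptc-MIR6462a-p3_1ss17GA, which was listed at 1 hairpin on chromosome 4, positions 2380196 to 2380327, plus strand.
ptc-MIR6462a: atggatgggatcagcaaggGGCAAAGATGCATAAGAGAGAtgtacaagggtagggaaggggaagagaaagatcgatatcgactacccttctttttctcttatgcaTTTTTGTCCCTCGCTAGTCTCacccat

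The capitals mark the places of the 2 listed strands. This sequence stood at 1049, 825 and 638 CPM at low sulfate, against 266, 278 and 263 CPM at high sulfate (1.64 ± 0.27; edgeR, adjusted p = 1.5e-04).

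miR3627 summed to 195, 195 and 152 CPM at low sulfate, against 81.6, 97.1 and 87.4 CPM at high sulfate (1.03 ± 0.28; edgeR, adjusted p = 0.039). The groups did not overlap, but the call was lost without low sulfate replicate 1 (1.04; edgeR, adjusted p = 0.104) or 2 (0.97, adjusted p = 0.188), without high sulfate replicate 1 (0.89, adjusted p = 0.264), 2 (1.11, adjusted p = 0.098) or 3 (1.14, adjusted p = 0.085), without the filter on low counts (0.97, adjusted p = 0.073) and under quantile normalization (1.06; limma, adjusted p = 0.115).

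The other called sequences were named after their values were seen, except for PC-5p-10350_1099. ptc-miR3627a_R+1 stood at 56.9, 79.2 and 83.5 CPM at low sulfate, against 25.2, 33.2 and 41.8 CPM at high sulfate (1.13 ± 0.28; edgeR, adjusted p = 0.013). Its call was lost without the filter (edgeR, adjusted p = 0.050) and without low sulfate replicate 2 (0.079) or 3 (0.051) or high sulfate replicate 1 (0.070) or 2 (0.072). ptc-MIR393c-p3 comes from the 3′ arm of a hairpin of miR393, a family that targets auxin receptors in Arabidopsis. It stood at 242, 205 and 174 CPM at low sulfate, against 110, 75.7 and 75.7 CPM at high sulfate (1.25 ± 0.29; edgeR, adjusted p = 0.007). The miR393 sum did not pass, at 6448, 6414 and 4851 CPM, against 5751, 4096 and 2944 CPM (0.47 ± 0.29; edgeR, adjusted p = 0.662). PC-5p-10350_1099, a predicted candidate, stood at 84, 69.7 and 49.6 CPM, against 39.8, 39.4 and 33.4 CPM (0.85 ± 0.23; edgeR, adjusted p = 0.021). Its call was lost under quantile normalization (0.50; limma, adjusted p = 0.314), without the filter (edgeR, adjusted p = 0.323), with the 6 libraries alone (0.078) and without low sulfate replicate 1 (0.165) or 2 (0.092) or high sulfate replicate 2 (0.077) or 3 (0.105).

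The other families did not pass. In the list of miRNAs that respond to copper (miR397, miR398, miR408 and miR1444, which target copper proteins) 0 of 14 tested sequences were called by edgeR or DESeq2, 1 had an unadjusted p under 0.05, and the median log2 change was −0.02. ptc-MIR1444c-p3_1ss1CT, the most abundant of them, stood at 7097, 6449 and 3682 CPM at low sulfate, against 6924, 9246 and 7749 CPM at high sulfate (−0.47 ± 0.28; edgeR, adjusted p = 0.484). The sums of the 4 families lay between −0.28 and 0.04 on the log2 scale. In the auxin list (miR160, miR167, miR390, miR393) 1 of 33 was higher, ptc-MIR393c-p3 above, and the median of 0.20 was 0.00 under quantile normalization. Its most abundant sequence, ptc-miR167f-5p_R+1, stood at 5539, 5367 and 6923 CPM, against 6337, 6003 and 7782 CPM (−0.17 ± 0.20; edgeR, adjusted p = 0.843).

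miR168, which targets the silencing protein ARGONAUTE1, and miR162, which targets DICER-LIKE1, belong to a list for the small RNA machinery in which 0 of 12 were called by edgeR or DESeq2 and 2 had an unadjusted p under 0.05. ptc-miR168a-5p stood at 4484, 4653 and 3125 CPM at low sulfate, against 5798, 3732 and 2809 CPM at high sulfate, with overlapping groups (−0.01 ± 0.24; edgeR, adjusted p = 0.995). Of 78 tested sequences of growth and development families, such as miR156, miR166 and miR172, 0 were called by edgeR and 2 by DESeq2, both lower, and 4 had an unadjusted p under 0.05. ptc-miR166a, which targets HD-ZIP III transcription factors, stood at 178434, 172754 and 119202 CPM, against 188527, 124161 and 113414 CPM (0.14 ± 0.23; edgeR, adjusted p = 0.901).

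In the miR169 family, which targets NF-YA transcription factors, 0 of 16 tested sequences were called by edgeR or DESeq2 and 1 had an unadjusted p under 0.05. The log2 change was negative for 14 of the 16, with a median of −0.62, which was −0.33 without high sulfate replicate 1 and −1.11 without low sulfate replicate 2. Its sum stood at 193, 292 and 129 CPM at low sulfate, against 452, 290 and 265 CPM at high sulfate (−0.71 ± 0.35; edgeR, adjusted p = 0.502), and its most abundant sequence ptc-miR169u-5p at 50, 76.9 and 51.9 CPM, against 121, 62.9 and 56.7 CPM. miR828, which targets MYB factors, was tested in 2 sequences with 0 calls by edgeR or DESeq2 and none at an unadjusted p under 0.05. ptc-miR828a stood at 52.1, 75 and 111 CPM, against 62.9, 60.8 and 100 CPM (0.08 ± 0.43; edgeR, adjusted p = 0.969).

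The largest share of reads belonged to miR472, miR482 and miR1448, families that target transcripts of NB-LRR immune receptors. Of 16 tested sequences 0 were called by edgeR and 1 by DESeq2, and 1 had an unadjusted p under 0.05. The log2 change was positive for 13 of the 16, with a median of 0.16, or 0.02 under quantile normalization. miR472 made up 26.8%, 27.4% and 30% of listed reads at low sulfate, against 25.2%, 26.9% and 30.5% at high sulfate. ptc-miR472a stood at 192438, 201282 and 216672 CPM, against 164042, 162408 and 218109 CPM (0.16 ± 0.24; edgeR, adjusted p = 0.882). ptc-miR1448_L+1R+1, ptc-miR472b and ptc-miR482a.1_L+5, the other abundant members, changed by 0.08, 0.26 and 0.00 on the log2 scale, and none passed (edgeR, adjusted p = 0.969, 0.697 and 0.995).

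Of the 68 tested sequences in families described mainly in poplar, 1 was called, the miR6462 sequence above, and ptc-miR1450_R-1, their most abundant, stood at 15307, 13414 and 8680 CPM at low sulfate, against 15790, 11646 and 9825 CPM at high sulfate (0.01 ± 0.23; edgeR, adjusted p = 0.995). Of 76 tested predicted candidates 1 was called. PC-3p-627_13627, the most abundant, stood at 743, 643 and 647 CPM, against 1008, 1003 and 805 CPM, without overlap, and did not pass (−0.47 ± 0.23; edgeR, adjusted p = 0.351). Of 19 tested sequences in the remaining families 1 was called, ptc-miR3627a_R+1.

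The low-high difference was then set against the same difference in plants with Cd, which shares no library with it. With Cd, 80 sequences were higher (21.7%) and 47 lower (12.8%) at low sulfate, together 34.5% of those tested. The difference itself, without Cd minus with Cd, was called for 27 sequences (7.34%), 6 of them higher (1.63%) and 21 lower (5.71%). For the miR395 sum it was 0.58 ± 0.37 and did not pass (edgeR, adjusted p = 0.344), with log2 changes of 8.35 without Cd and 7.76 with Cd. For the miR399 sum it was 1.12 ± 0.45 (edgeR, adjusted p = 0.109), with changes of −1.50 without Cd and −2.62 with Cd.

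Of the 4 families called without Cd, 2 differed, in a family table where 7.64% of features did, 3.47% higher and 4.17% lower. The 4 were picked by their change without Cd, which is part of this difference, so their count is a description and not comparable with that share. The miR6462 sum was 1.43 higher at low sulfate without Cd and changed by −0.84 ± 0.25 with Cd (edgeR, adjusted p = 0.014), a difference of 2.27 ± 0.36 (edgeR, adjusted p = 4.1e-05). The miR3627 sum changed by 1.03 without Cd and by −0.57 with Cd, which did not pass (edgeR, adjusted p = 0.122), a difference of 1.60 ± 0.41 (edgeR, adjusted p = 0.009). Its 2 sequences were named here after their values were seen. ptc-miR3627a_R+1 was higher at low sulfate with Cd as well (1.05 ± 0.30; edgeR, adjusted p = 0.011), and its difference of 0.08 ± 0.41 did not pass (edgeR, adjusted p = 0.908). ptc-miR3627b did not pass in edgeR without Cd (0.97 ± 0.32; edgeR, adjusted p = 0.085, or 0.046 with DESeq2) and was lower with Cd (−1.43 ± 0.34; edgeR, adjusted p = 0.003), a difference of 2.40 ± 0.47 (edgeR, adjusted p = 0.003). The miR169 sum, uncalled without Cd, changed by 1.76 ± 0.36 with Cd (edgeR, adjusted p = 6.3e-04), a difference of −2.47 ± 0.50 (edgeR, adjusted p = 0.001).

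**Figure D4:**
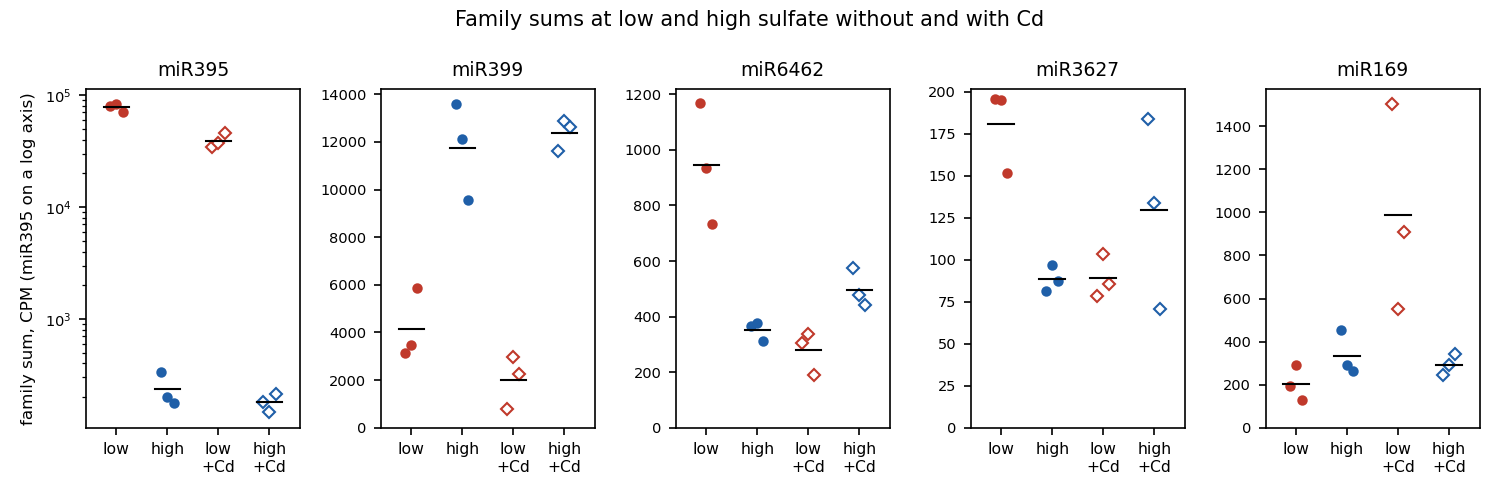
Reads summed by family in CPM at low and high sulfate without Cd (filled) and with Cd (open), 3 libraries per group with the mean as a bar; miR395 is on a log axis. miR6462 stands at 732 to 1170 CPM at low sulfate without Cd, against 312 to 375 CPM at high sulfate without Cd, and does not have this order with Cd.

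The mRNA libraries of the same treatments gave a second readout of the transcripts these families cut. A degradome library records the 5′ ends of cut transcripts, and the authors made 1 from a pool of 9 RNAs without Cd, so it does not separate sulfate levels. Target loci, called cut below, were those with reads at a cut site in that library, and category 0 is the highest rank of a site. A locus with 1 read at a site of category 4, the lowest rank, is a candidate target only. Their mRNA was given as FPKM, whose read depth is unknown, and tested on the log2(FPKM + 1) scale with limma, which called 830 of 23166 loci (3.58%), 271 higher (1.17%) and 559 lower (2.41%). No gene name or function could be given to these identifiers.

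Of 6 loci cut by miR395, 3 were lower, and these were the 3 with sites of category 0. Potri.010G081200, on chromosome 10, stood at 6.27, 6.3 and 5 FPKM at low sulfate, against 30.2, 34.9 and 25.8 FPKM at high sulfate (−2.19 ± 0.12; limma, adjusted p = 2.1e-07). Its site had 48 degradome reads, or 6.86 when divided over transcripts, listed under stu-miR395a_1ss1CA. Such reads do not tell which miR395 sequence guided the cut. Potri.008G159000, on chromosome 8, stood at 31.3, 17.8 and 15.4 FPKM, against 48.4, 47.7 and 46.7 FPKM (−1.17 ± 0.25; limma, adjusted p = 0.020), with 49 reads at its site (7.11 divided). Potri.002G092400, on chromosome 2, stood at 15.8, 16.9 and 15.5 FPKM, against 37.5, 22.7 and 23.9 FPKM (−0.73 ± 0.18; limma, adjusted p = 0.035), with 9 reads at its site (1.12 divided). None of the 3 had overlapping groups, but all 3 were already called. How often this held over all tested loci was not counted. Potri.008G159000 no longer passed without low sulfate replicate 2 (adjusted p = 0.084) or 3 (0.075) or high sulfate replicate 2 (0.059) or 3 (0.072), and Potri.002G092400 without any 1 library other than high sulfate replicate 2 (0.068 to 0.114, all limma). With the 6 libraries alone neither passed (limma, adjusted p = 0.061 and 0.089), and Potri.002G092400 did not pass without the filter (0.050) or with a replicate block (0.058).

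The 3 other loci cut by miR395, with sites of category 2 or 4, changed by −0.34, 0.21 and −0.09 and did not pass.

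For miR399, 12 of 13 loci were tested, and 1 was called, Potri.004G060000. This is a candidate target only, covers the hairpin of ptc-MIR399f itself and is described below. The category 0 site with the most reads was in Potri.011G052600, at 4.75, 5.35 and 3.93 FPKM at low sulfate, against 5.51, 6.86 and 6.96 FPKM at high sulfate (−0.39 ± 0.19; limma, adjusted p = 0.287). Potri.004G043500 stood at 2.8, 3.85 and 1.78 FPKM, against 1.64, 4.86 and 6.33 FPKM (−0.38 ± 0.33; limma, adjusted p = 0.589), and Potri.001G415800 stood below 1 FPKM on average and was not tested. For miR6462, the site in Potri.001G078100 had 1409 degradome reads, the most of any locus here, and its mRNA stood at 1085, 1023 and 915 FPKM at low sulfate, against 839, 926 and 1001 FPKM at high sulfate, with overlapping groups (0.13 ± 0.11; limma, adjusted p = 0.601). Potri.001G077600 changed by −0.05 ± 0.15 (limma, adjusted p = 0.900). Of 8 tested gene identifiers cut by miR6462, among which Potri.003G152200 and Potri.003G152300 share 1 mRNA locus and its values, 1 was called. This was Potri.002G166600, named after its values were seen and with 1 degradome read at a site of category 4. It stood at 8.62, 8.53 and 8.48 FPKM, against 4.23, 5.22 and 4.62 FPKM (0.75 ± 0.14; limma, adjusted p = 0.011), and no longer passed without high sulfate replicate 3 (0.050). The 1 locus cut by miR3627, Potri.006G072900, stood at 22.8, 21.3 and 20.2 FPKM, against 23.8, 25.3 and 25 FPKM, and did not pass (−0.20 ± 0.08; limma, adjusted p = 0.167).

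Some hairpins of these families lie in loci of the mRNA tables, by the coordinates both kinds of file give. Neither names its genome build, and these loci were looked up after the values were seen. Of 37 hairpin positions of miR395, miR399, miR827, miR6462 and miR3627, 8 overlapped 5 loci, of which 3 had enough signal to be tested. Entries that overlap each other, such as vvi-MIR395g and ptc-MIR395b, count as separate positions here, so the 8 are not 8 separate places. Potri.006G099000, on chromosome 6 from 7613290 to 7617918, overlaps ptc-MIR395b. It was listed at 35.9, 5.8 and 6.45 FPKM at low sulfate and at 0 in all 3 high sulfate libraries, and it was called higher (limma, adjusted p = 4.5e-04). It was also listed at 0 in all 3 middle sulfate libraries.

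A locus without a gene identifier, XLOC_005710, on chromosome 2 from 14658610 to 14659757, covers ptc-MIR395a. It stood at 87.8, 60.6 and 67.3 FPKM at low sulfate, against 20.8, 39.8 and 38.9 FPKM at high sulfate, without overlap, but it did not pass (1.13 ± 0.39; limma, adjusted p = 0.130). It was thus detected at high sulfate, as the 2 strands of ptc-MIR395a were. Potri.004G060000, on chromosome 4 from 4816978 to 4817667, covers ptc-MIR399f. It was listed at 0, 1 and 0 FPKM at low sulfate, against 9.19, 12.2 and 25.2 FPKM at high sulfate (−3.60 ± 0.56; limma, adjusted p = 0.004). In the degradome it had 1 read at a site of category 4, the lowest rank, assigned to ptc-MIR399g-p5. In each of the 3 loci the log2 change had the sign of that of the miRNA whose hairpin it overlaps. Of the 3, 2 passed, beside 3.58% of all tested loci. Among the libraries without Cd, Potri.006G099000 met the filter on mean FPKM through low sulfate only, the group where it is high. The loci were also looked up after the values were seen, so the shared sign and this count are a description.

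**Figure D5:**
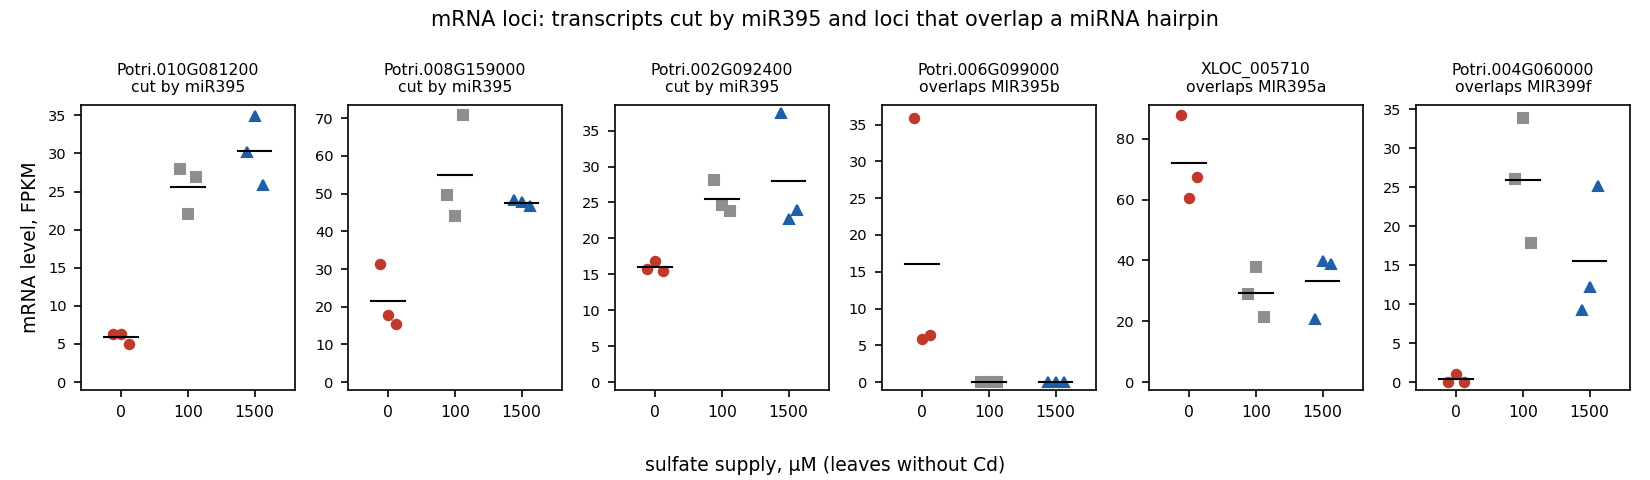
mRNA level in FPKM at 0, 100 and 1500 µM sulfate without Cd, 3 libraries per level with the mean as a bar, for the 3 loci with a category 0 cut site of miR395 and the 3 tested loci that overlap a miRNA hairpin. The cut loci lie lower at 0 µM than at 1500 µM, Potri.006G099000 is above 0 at 0 µM only, and Potri.004G060000 is at 0, 1 and 0 FPKM at 0 µM.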

How the data were processed

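Small RNA, mRNA and degradome libraries of poplar leaves were used. For small RNA the authors deposited an expected (estimated) count per mature sequence and hairpin, and a normalized signal that was not tested. The headers name miRBase precursors and a genome as what reads were placed on. Mapper and build: not given in the sources used here. Expected counts were summed over hairpins for each mature sequence (79.3% whole within 0.01) and rounded. The deposited files list 1386 entries for 1162 sequences, and 11 further entries without values were not analysed here. For mRNA the authors deposited FPKM per locus, and the submitters' processing notes name TopHat2 2.1.1. For the degradome the authors deposited read counts per cut site, an alignment score and a category, and a value divided over transcripts, an estimated count.

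All 18 small RNA libraries entered 1 fit in edgeR 4.0.16 (R 4.3.3) with 6 group means, TMM factors and filterByExpr, and contrasts gave each comparison; the biological coefficient of variation was 27.5%. SE was the log2 change divided by the root of F. A second table summed named sequences by family number. For mRNA, loci with a mean of at least 1 FPKM were fitted with limma 3.58.1 (trend, robust) on log2(FPKM + 1), a scale that understates the change of low loci. Tests were two-sided with Benjamini-Hochberg adjustment over each whole table, and a feature was called under 0.05. The fits were tested on simulated data. Intervals and floors (3 reads) cover counting error only.

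Named were the 8 higher and 8 lower called sequences of smallest p without overlap between groups (6 lower sequences met this), the most abundant sequence and the sums of each list, the 5 most abundant sequences, called sequences whose difference with Cd also passed, and up to 3 loci with category 0 or 1 sites per called family. The comparison, its lists and its members were chosen with earlier results of these data known. Alternatives were other scalings and tools (RLE factors, DESeq2 1.42.0, limma on quantile-normalized values), filters and samples, the largest hairpin entry, a replicate block and leaving out each library. Across sequences, r between replicates ran from 0.976 to 0.992, and none matched within sampling noise. Of the Populus identifiers none matched the reference gene table.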

Additional observations from a re-analysis of the deposited data

Results flagged for a closer look

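For 6 results the low-high difference itself differed between plants without and with Cd, by the contrast in edgeR with Benjamini-Hochberg adjustment over the whole table. The difference without Cd minus that with Cd was 2.41 on the log2 scale for ptc-MIR6462a-p3_1ss17GA (edgeR, adjusted p = 3.1e-04), which changed by 1.64 without Cd and −0.77 with Cd. It was 2.27 for the miR6462 sum (edgeR, adjusted p = 4.1e-05) and 1.60 for the miR3627 sum (edgeR, adjusted p = 0.009), and the miR3627 difference was lost without high sulfate replicate 1 with Cd (1.21; edgeR, adjusted p = 0.066). It was 2.40 for ptc-miR3627b (edgeR, adjusted p = 0.003), which changed by 0.97 without Cd and −1.43 with Cd. It was 1.38 for PC-5p-10350_1099 (edgeR, adjusted p = 0.011), which changed by 0.85 without Cd and −0.53 with Cd, and this was lost without the filter on low counts (1.46; edgeR, adjusted p = 0.091). It was −2.47 for the miR169 sum (edgeR, adjusted p = 0.001), which changed by −0.71 without Cd and 1.76 with Cd.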

How the results depend on the processing

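Under the alternatives run, 16 to 20 sequences were called higher (18 as reported), among them 16 to 18 of the original 18, and all tested miR395 sequences (14, or 15 without the filter on low counts) were called in each. The 7 called lower depended more on the settings: 14 were called lower with DESeq2, 14 with limma on quantile-normalized values, 19 without the filter on low counts, 13 with the 6 libraries alone, and 2 to 15 with 1 library left out, the fewest without low sulfate replicate 1, where 1 of the original 7 was still called, and the most without low sulfate replicate 3. Of family sums 5 were higher (3 as reported) with library totals that omit the 5 most abundant sequences. Lower family sums numbered 2 (1 as reported) under quantile normalization, without the filter and with the 6 libraries alone, and 0 to 1 with 1 library left out, 0 without low sulfate replicate 1 or 2. Under quantile normalization the 2 did not include the miR399 sum (limma, adjusted p = 0.115). For the difference with Cd, the 6 called higher became 14 with DESeq2 and 13 under quantile normalization, and 3 to 16 with 1 library left out; the 21 called lower became 12 to 27, with 12 without high sulfate replicate 2 with Cd. Of the mRNA loci with a category 0 site, 1 was lower (3 as reported) with the 6 libraries alone, and 1 to 3 with 1 library left out. The causes were not tested. Same-numbered libraries at low and high sulfate did not deviate together in every pair (r = 0.326, −0.044 and 0.429), so the numbers were not taken as pairs; with a replicate block 18 sequences were higher and 7 lower, 3 family sums were higher and 1 lower, and the mRNA call on Potri.002G092400 was lost (−0.73; limma, adjusted p = 0.058). Of the results for single sequences, families and loci, no called value changed sign under any alternative run. Depth limits the high sulfate level of miR395 sequences with under 10 reads in all at high sulfate.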
